A study of Mus musculus with 9 samples.

Results

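The genes described here are 118 enzymes and enzyme subunits of mouse lung that the authors' pathway table places in the KEGG map of metabolic pathways and that were listed as different between bleomycin and vehicle lungs. The map held 128 of the 1908 genes named in the authors' tables. Arg1, Tat, Cth, Lrat, Aldh1a1, Aox3, the cytochromes P450, the solute carriers and the carbonic anhydrases were set aside by name, which removed 10 genes of the map. Each gene was read at 1 probe set, the one with the highest mean where the authors listed several, which concerned Uck2 alone. Genes were sorted into classes by the other KEGG maps that name them, and a gene in several maps was counted under the first of a fixed order. This gave 32 genes of amino acids, 27 of nucleotides, 16 of glycans, 8 of glycerolipids and phospholipids, 7 of oxidative phosphorylation and 7 of cofactors and vitamins. Arachidonic acid products and the fatty acids and sterols had 5 genes each, the inositol phosphates 4, the carbohydrates 4 and the sphingolipids 3.

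Whole lungs of 9 male C57BL/6J mice aged 11 weeks were measured on Affymetrix whole-transcript arrays, 3 mice per group. Mice of the homoharringtonine group had received 2 U/kg bleomycin into the trachea at 8 weeks of age and, from day 5, homoharringtonine into the peritoneum at 0.545 mg/kg, 2 times a week for 15 days. Mice of the bleomycin group had received the same instillation, and the protocol gives PBS as its alternative, for the vehicle group, without homoharringtonine in either case. The labels do not say per group which mice were injected with the vehicle of homoharringtonine. All mice were of the same strain and sex, and no transgene is given in the labels. Bleomycin, an antibiotic that breaks DNA, serves to induce scarring of rodent lungs, and homoharringtonine is a plant alkaloid that blocks translation elongation.

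Metabolic enzymes supply the building blocks, energy and signalling lipids that a tissue under repair draws on. Collagen, the main protein of scars, is hydroxylated and glycosylated by enzymes of the endoplasmic reticulum before it folds. Soluble guanylyl cyclase answers nitric oxide in pulmonary vessels, and phosphodiesterases end the cyclic nucleotide signal. Macrophages, which enter the injured lung, are rich in lysosomal hydrolases and in enzymes of prostaglandin synthesis.

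All values are log2 signals per probe set, on which a step of 1 doubles the signal. A fold is 2 to the power of the absolute difference of group means. Array medians lay between 4.49 and 4.57, no pair of arrays was identical, and the 3 arrays per group limit the precision of each value. Of the 118 genes, 115 had a mean above 4.52, the median of all 41345 probe sets, and Aass, Art2b and Pnp2 lay below it. The median spread of a gene within a group was 0.180 in homoharringtonine lungs, 0.211 in bleomycin lungs and 0.124 in vehicle lungs (SD, n = 3 each). The surfactant gene Sftpa1, a marker of lung epithelium, had signals of 10.91 to 11.40 in homoharringtonine lungs, 10.18 to 10.69 in bleomycin lungs and 11.28 to 11.41 in vehicle lungs. Of 10 alveolar type 2 markers it was among 5 named, and limma called all 5 lower with bleomycin, beside 4.42% of all probe sets. Their median difference was -1.03, and they could be read only where the authors had listed them. In whole tissue, fewer cells of a type and less RNA per cell cannot be told apart.

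Between bleomycin and vehicle lungs, 55 of the 118 genes were higher and 63 were lower, and the arrays of the groups did not overlap for any of them. Such separation was found in 28% of all probe sets. However, these genes entered the list because they differed by at least 1.5-fold and passed the authors' own test between the same arrays. The comparison is therefore a description. The folds ran from 1.51 to 5.11 with a median of 1.88. Limma called 108 of the 118 at an adjusted p of 0.05, where 7.78% of all probe sets were called. Of the 108, 50 were higher and 58 lower, beside 3.37% and 4.42% of all probe sets. That count was 70 without bleomycin replicate 2, where 1380 of all probe sets were called. It was 64 without vehicle replicate 2 or vehicle replicate 3, where 1252 and 1136 of all probe sets were called. The genes closest to the listing threshold of fold were Gfpt1 with 1.51-fold, Mif with 1.51-fold and Lbr with 1.52-fold. Among unlisted probe sets the largest fold under 1.5 was 1.49999, and 3005 unlisted probe sets had a fold of at least 1.5. No listed probe set had an adjusted p above 0.0498 in the authors' local pooled error test.

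**Figure D1:**
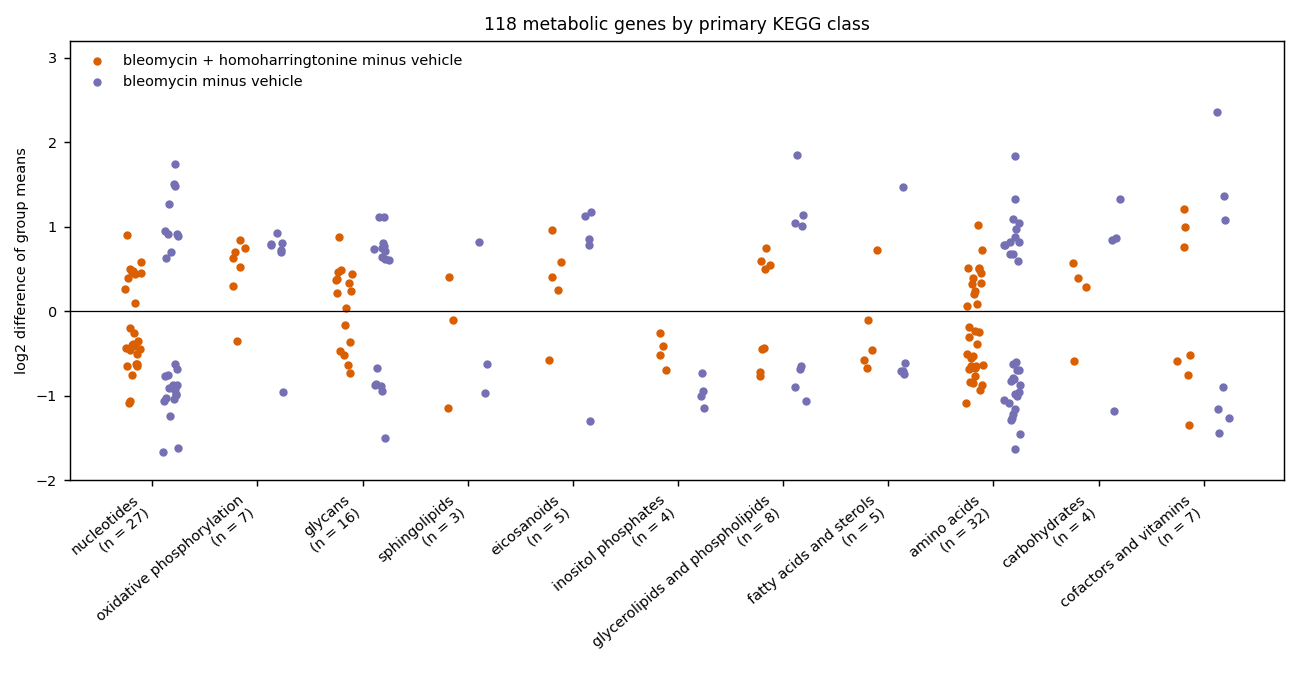
Log2 differences of group means (vertical axis) for the 118 genes by metabolic class (horizontal axis), with 1 point per gene for homoharringtonine minus vehicle (orange) and for bleomycin minus vehicle (violet). No class but the inositol phosphates, with 4 lower genes, lay on 1 side of 0 with bleomycin, and no gene changed side between the comparisons.

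Of 27 nucleotide genes, 10 were higher and 17 lower in bleomycin than in vehicle lungs. Enzymes of salvage and breakdown were found on both sides, and those that make and degrade cyclic nucleotides were lower. Gda, Nt5e, Uck2 and Adssl1 had the largest higher values of the class.

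Gda encodes guanine deaminase, which removes guanine from the purine pool. Its signals were 6.65, 6.66 and 7.28 in homoharringtonine lungs, 7.92, 8.22 and 8.29 in bleomycin lungs and 6.41, 6.50 and 6.30 in vehicle lungs. The bleomycin arrays stood above all 6 others, 3.35-fold over the vehicle mean. Uck2, a uridine and cytidine kinase of pyrimidine salvage, had 7.16, 7.02 and 7.35 in homoharringtonine lungs, 8.03, 8.48 and 8.15 in bleomycin lungs and 6.82, 6.77 and 6.61 in vehicle lungs. It was 2.80-fold higher with bleomycin, and the 3 groups occupied separate ranges. Adssl1, an adenylosuccinate synthase that leads from inosine monophosphate towards adenine nucleotides, had 6.00, 6.44 and 6.38 in homoharringtonine lungs, 7.13, 7.46 and 7.73 in bleomycin lungs and 6.13, 6.21 and 6.16 in vehicle lungs. The homoharringtonine range enclosed the vehicle range for Adssl1. Nt5e, the cell surface enzyme that releases adenosine from AMP, was 2.83-fold higher with bleomycin, at 8.52, 7.96 and 8.62 in homoharringtonine lungs, 8.78, 9.33 and 9.73 in bleomycin lungs and 7.69, 7.88 and 7.77 in vehicle lungs.

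Promoters of Gda and Uck2 are shown for their differences between homoharringtonine and bleomycin lungs. Among the 118, Gda had the largest difference and Uck2 the smallest adjusted p in limma. Limma called neither at 0.05, and the bleomycin arrays are those by which the 118 genes were chosen. The 250 bases before the annotated start come from RefSeq on GRCm38.p6, at chr19:21472662-21472911 on the minus strand for Gda and chr1:167285128-167285377 on the minus strand for Uck2, each read 5′ to 3′. Capitals mark GGGCGG and CCAAT on either strand, where runs of capitals can hold overlapping copies.
Gda: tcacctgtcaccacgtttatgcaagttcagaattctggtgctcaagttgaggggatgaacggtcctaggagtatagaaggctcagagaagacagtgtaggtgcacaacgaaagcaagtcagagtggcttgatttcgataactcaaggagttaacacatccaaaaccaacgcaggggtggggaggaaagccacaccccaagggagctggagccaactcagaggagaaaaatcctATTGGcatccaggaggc
Uck2: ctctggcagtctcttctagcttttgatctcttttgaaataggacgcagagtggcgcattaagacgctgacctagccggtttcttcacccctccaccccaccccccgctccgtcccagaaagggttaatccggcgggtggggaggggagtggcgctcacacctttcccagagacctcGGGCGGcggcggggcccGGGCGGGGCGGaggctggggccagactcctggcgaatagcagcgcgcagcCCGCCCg
The Gda window held 1 CCAAT and no GGGCGG, with a GC content of 50%. The Uck2 window held 4 GGGCGG and no CCAAT, with a GC content of 66%. The promoters thus had none of these motifs in common.

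Other salvage and synthesis enzymes moved less. Aprt, which salvages adenine, was 1.86-fold higher with bleomycin, and the purine nucleoside phosphorylase Pnp2 was 1.88-fold higher at a dim signal. Ctps, which makes CTP from UTP, had 7.77, 7.51 and 7.46 in homoharringtonine lungs, 7.41, 7.50 and 7.84 in bleomycin lungs and 6.64, 6.60 and 6.77 in vehicle lungs. Both groups given bleomycin lay above vehicle and covered nearly the same range. Among the lower genes were the salvage enzymes Adk, an adenosine kinase, with 1.53-fold and Uprt, related to uracil phosphoribosyltransferases, with 1.68-fold. Also lower were the IMP dehydrogenase Impdh1 with 1.60-fold and the ribose phosphate kinase Prps2 with 1.87-fold, all relative to vehicle lungs. The adenylate kinases Ak7 and Ak9 were 2.09-fold and 2.05-fold lower.

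Cyclic nucleotide genes were lower with bleomycin in every case present among the 118. They comprised the adenylyl cyclases Adcy4 and Adcy8, the soluble guanylyl cyclase subunits Gucy1a2 and Gucy1a3, the natriuretic peptide receptor Npr1 and the phosphodiesterases Pde4b, Pde5a, Pde7b and Pde8b. Adcy8 had 5.37, 5.29 and 5.30 in homoharringtonine lungs, 4.90, 4.44 and 4.89 in bleomycin lungs and 6.22, 6.36 and 6.64 in vehicle lungs. The 3 groups were separate, with homoharringtonine between the others, and the bleomycin mean was 3.17-fold lower than the vehicle mean. Pde5a, which degrades cyclic GMP in vascular smooth muscle, had 8.75, 8.70 and 8.70 in homoharringtonine lungs, 8.24, 7.87 and 8.22 in bleomycin lungs and 9.29, 9.32 and 9.43 in vehicle lungs. It showed the same order of groups. Pde8b, a phosphodiesterase of cyclic AMP, was 3.06-fold lower with bleomycin, at 5.82 to 6.29 in homoharringtonine lungs, 5.14 to 5.94 in bleomycin lungs and 7.15 to 7.20 in vehicle lungs.

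The 7 genes of the cyclic GMP and protein kinase G map, which adds Plcb1 to the cyclases, Npr1 and Pde5a, had a median difference of -0.996 between bleomycin and vehicle lungs. Of these 7, 5 had homoharringtonine arrays above all bleomycin arrays, as had 6.19% of all probe sets, and 5 had them below all vehicle arrays, as had 11.7%. The bleomycin and vehicle arrays are those by which the genes were chosen, so these counts are a description. Summed linear signal of 9 endothelial markers lay at 3678 to 5102 in homoharringtonine lungs, 2674 to 3364 in bleomycin lungs and 6951 to 7241 in vehicle lungs. The sum thus had homoharringtonine lungs between the others, but its markers differed. Between homoharringtonine and bleomycin lungs their median difference was 0.36, from 0.04 for Flt1 to 0.91 for Calcrl. Calcrl, the brightest of the 9 on every array, was the only one limma called there, where 0.0387% of all probe sets were called higher. The arrays of Flt1 and Cldn5 overlapped between these groups. The part of endothelial signal in the genes' difference was not tested.

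Inositol phosphate genes followed the same direction. Phospholipases C Plcb1 and Plce1, which split membrane inositol lipids, were 1.99-fold and 1.66-fold lower with bleomycin, and the phosphatase Inpp4b and the kinase Itpkb were 2.22-fold and 1.93-fold lower. Plcb1 depended on which lung was read, as it had 6.97, 6.89 and 6.89 in homoharringtonine lungs, 6.85, 5.91 and 5.75 in bleomycin lungs and 7.08, 7.14 and 7.29 in vehicle lungs. Bleomycin replicate 1 lay closer to the other groups than to its own.

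Collagen-modifying enzymes included a pair with opposite directions. P4ha3 and P4ha1 encode alternative catalytic subunits of prolyl hydroxylase, which hydroxylates collagen prolines so that the triple helix is stable. P4ha3 had 5.67, 5.26 and 5.54 in homoharringtonine lungs, 6.36, 6.63 and 5.93 in bleomycin lungs and 4.38, 4.55 and 4.48 in vehicle lungs. It was 3.57-fold higher with bleomycin. P4ha1 had 7.73, 7.80 and 7.64 in homoharringtonine lungs, 7.25, 7.17 and 7.24 in bleomycin lungs and 8.29, 8.39 and 8.43 in vehicle lungs. It was 2.22-fold lower with bleomycin, and for both genes the homoharringtonine arrays lay between the other groups without overlap.

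Promoters of the pair are shown because these subunits of 1 enzyme had opposite directions. The windows are the 250 bases before the RefSeq start on GRCm38.p6, chr7:100285270-100285519 for P4ha3 and chr10:59323046-59323295 for P4ha1, both on the plus strand and 5′ to 3′, with GGGCGG on either strand in capitals.
P4ha3: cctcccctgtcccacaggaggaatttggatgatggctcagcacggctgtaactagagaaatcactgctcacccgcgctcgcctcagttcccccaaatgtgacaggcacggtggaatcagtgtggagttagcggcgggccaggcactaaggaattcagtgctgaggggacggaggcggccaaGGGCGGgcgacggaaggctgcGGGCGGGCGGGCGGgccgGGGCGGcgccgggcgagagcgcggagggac
P4ha1: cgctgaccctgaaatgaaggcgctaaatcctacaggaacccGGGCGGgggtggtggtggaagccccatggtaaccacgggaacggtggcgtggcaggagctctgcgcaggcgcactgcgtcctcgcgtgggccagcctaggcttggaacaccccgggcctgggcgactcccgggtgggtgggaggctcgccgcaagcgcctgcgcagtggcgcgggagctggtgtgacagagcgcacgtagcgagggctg
The P4ha3 window held 5 GGGCGG, of which 3 overlap in a run towards its 3′ end, against 1 in P4ha1. GC content was 67.2% for P4ha3 and 69.6% for P4ha1, and neither window held TATAAA or CCAAT.

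Promoter windows were matched by gene identifier for 101 of the 118 genes, 45 of them higher and 56 lower with bleomycin. GGGCGG was present for 73.3% of the higher genes and 64.3% of the lower genes, against 35.4% of all 27025 genes with a window. CCAAT was present for 37.8%, 46.4% and 37.5% of these sets, and TATAAA for 8.89%, 10.7% and 14.3%. CACGTG was found for 6.67%, 8.93% and 6.86%. All motifs were searched on both strands, and a gene with several windows counted once. The 27025 genes were not matched to the 118 by signal, and 115 of the 118 lay above the median signal of all probe sets. Nothing is therefore drawn from the shares.

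Further collagen enzymes were Plod1, a lysyl hydroxylase, and the galactosyltransferases Colgalt1 and Colgalt2, which glycosylate hydroxylysine. Plod1 was 1.73-fold higher with bleomycin, at 6.68, 6.45 and 6.36 in homoharringtonine lungs, 7.11, 7.14 and 6.9995 in bleomycin lungs and 6.19, 6.31 and 6.39 in vehicle lungs. Colgalt1 was 1.56-fold higher and Colgalt2 2.83-fold lower. Colgalt2 spread widely in bleomycin lungs, at 4.73, 3.52 and 4.24, against 5.72, 5.77 and 5.49 in vehicle lungs. Fibroblast and myofibroblast markers, 8 of 9 of them named, summed to 2976, 2585 and 3173 in homoharringtonine lungs, 4786, 5172 and 3610 in bleomycin lungs and 2200 to 2427 in vehicle lungs. Limma called 5 of the 8 higher and 2, Npnt and Tcf21, lower with bleomycin, with differences of -0.96 and -1.38. Of all probe sets 3.37% were called higher and 4.42% lower. The markers could be read only where the authors had listed them, so these counts describe the listing. The part of these markers in the enzymes' differences was not tested.

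**Figure D2:**
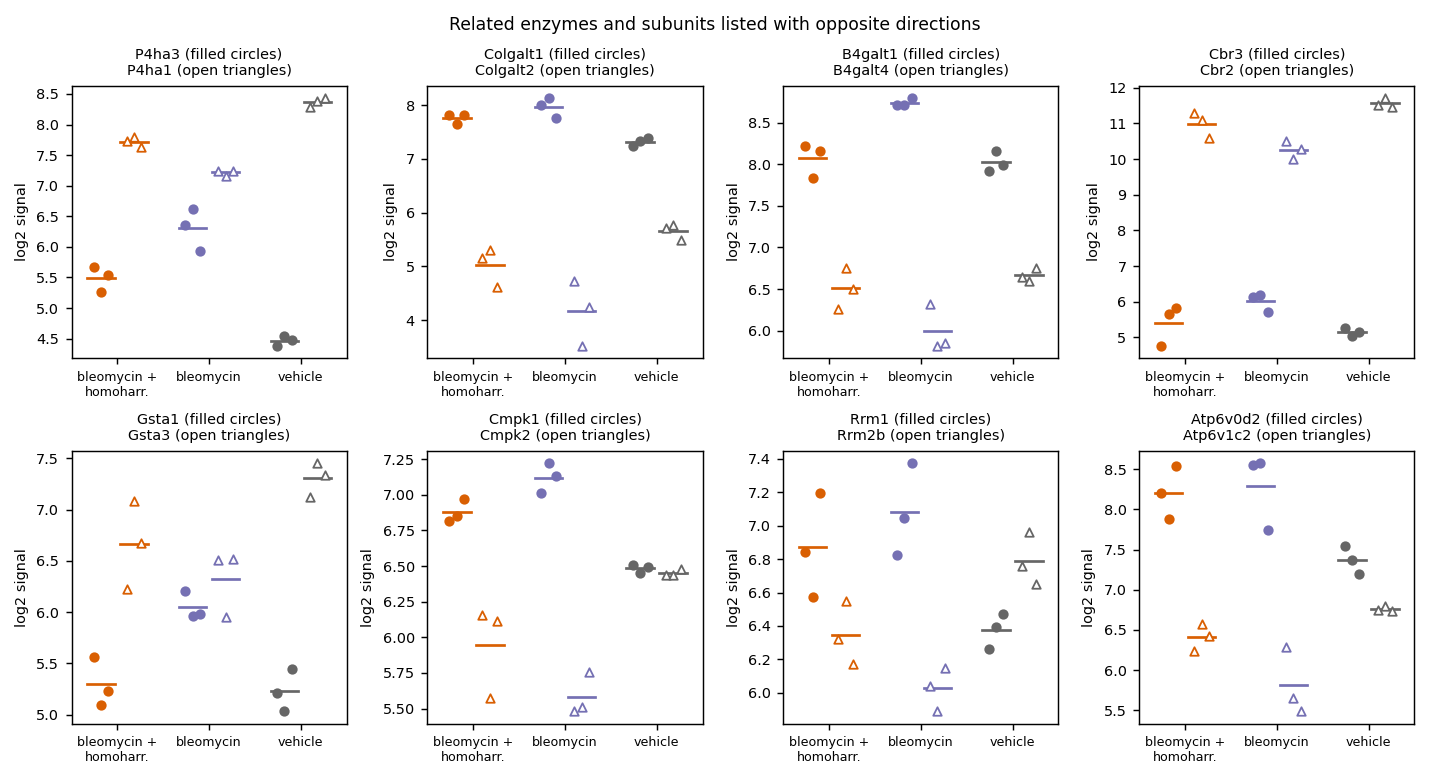
Log2 signal (vertical axis) of 8 pairs of related enzymes or subunits on the arrays of each group (horizontal axis), with 1 symbol per mouse, the higher partner with bleomycin as filled circles, the lower as open triangles, and bars for group means. In each panel the circles of bleomycin lungs lie above those of vehicle lungs and the triangles of bleomycin lungs lie below those of vehicle lungs.

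Such opposite directions were found in 8 pairs, which were picked with these values in view. Related genes with a shared direction, such as Adcy4 with Adcy8 or Ak7 with Ak9, were not counted. Besides P4ha3 with P4ha1 and Colgalt1 with Colgalt2, they were B4galt1 with B4galt4, Cbr3 with Cbr2, Gsta1 with Gsta3, Cmpk1 with Cmpk2, Rrm1 with Rrm2b and Atp6v0d2 with Atp6v1c2. Among galactosyltransferases, B4galt1 was 1.64-fold higher with bleomycin and B4galt4 1.59-fold lower. B4galt1 had 8.22, 7.83 and 8.16 in homoharringtonine lungs, 8.72, 8.71 and 8.79 in bleomycin lungs and 7.92, 8.16 and 7.99 in vehicle lungs, so that the bleomycin arrays alone stood apart. Cmpk1 and Cmpk2 are the cytosolic and the mitochondrial pyrimidine monophosphate kinase. Cmpk1 was 1.55-fold higher and Cmpk2 1.83-fold lower with bleomycin. Rrm1, the large subunit of ribonucleotide reductase, was 1.63-fold higher, whereas Rrm2b, the small subunit induced by p53, was 1.70-fold lower. Limma did not call Rrm1 or Atp6v0d2 between bleomycin and vehicle lungs, with adjusted p of 0.0538 and 0.0590.

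Glutathione genes were 6 higher and 3 lower with bleomycin. Gsr, which regenerates reduced glutathione, had 7.60, 7.65 and 7.64 in homoharringtonine lungs, 7.98, 8.28 and 8.26 in bleomycin lungs and 7.19, 7.32 and 7.38 in vehicle lungs. Pgd, which makes NADPH in the pentose phosphate pathway, had 8.01, 8.03 and 8.01 in homoharringtonine lungs, 8.26, 8.34 and 8.54 in bleomycin lungs and 7.60, 7.82 and 7.67 in vehicle lungs. In both genes the homoharringtonine arrays were tightly grouped between the other groups. Gpx1, the glutathione peroxidase, was 1.73-fold higher with bleomycin, and the transferases Gsta3 and Gstm2 were 1.97-fold and 1.53-fold lower. Gsta1 was 1.76-fold higher, on a probe set that the files mark as able to cross-hybridise.

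Catalase and haem oxygenase, both antioxidant enzymes, went in opposite directions. Cat had 9.36, 8.86 and 8.90 in homoharringtonine lungs, 8.84, 8.18 and 8.31 in bleomycin lungs and 9.85, 10.08 and 9.74 in vehicle lungs, a 2.73-fold lower mean with bleomycin. Hmox1, which degrades haem, had 6.45, 5.80 and 7.49 in homoharringtonine lungs, 7.01, 7.67 and 8.51 in bleomycin lungs and 5.64, 5.32 and 5.17 in vehicle lungs. Its 5.11-fold difference between bleomycin and vehicle was the largest of the 118, and its spread was also wide, since homoharringtonine replicate 3 lay above bleomycin replicate 1.

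Amino acid enzymes numbered 13 higher and 19 lower with bleomycin. The higher ones held Arg2, the mitochondrial arginase, with 2.13-fold, Sat1, which acetylates polyamines, with 2.06-fold, glutamine synthetase Glul with 1.60-fold and creatine kinase Ckb with 1.72-fold. Hibadh, of valine breakdown, was 2.51-fold higher, but bleomycin replicate 1 had 5.55 where the other bleomycin lungs had 6.61 and 6.75, on a probe set marked, like that of Gsta1, as able to cross-hybridise. Among the lower ones, Inmt, a methyltransferase of indole amines, was 3.09-fold lower, and the monoamine oxidase Maob was 2.41-fold lower. Hdc, which makes histamine, had 6.33, 6.96 and 6.21 in homoharringtonine lungs, 5.60, 5.48 and 5.50 in bleomycin lungs and 6.63, 6.73 and 6.87 in vehicle lungs. The bleomycin arrays of Hdc were closely grouped below all others. Aass, which starts lysine breakdown, was 2.44-fold lower, and the biotin carboxylases Pcca and Mccc1 were 1.77-fold and 1.73-fold lower.

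Genes that make or use methyl groups were found on both sides. Mthfd1l, a mitochondrial enzyme of folate one-carbon metabolism, was 2.11-fold higher with bleomycin. Mat2a, which makes the methyl donor S-adenosylmethionine, had 8.44, 8.42 and 8.11 in homoharringtonine lungs, 8.17, 8.00 and 8.18 in bleomycin lungs and 8.92, 9.27 and 9.30 in vehicle lungs. Ahcyl2, a protein related to adenosylhomocysteinase, had 6.29, 6.27 and 6.04 in homoharringtonine lungs, 6.14, 6.06 and 6.16 in bleomycin lungs and 7.07, 7.10 and 7.04 in vehicle lungs. In both genes the groups given bleomycin overlapped each other and lay below vehicle. The histone methyltransferases that KEGG enters under lysine degradation, Ezh1, Kmt2a, Kmt2e and Suv420h1, were 2.01-fold, 1.75-fold, 1.62-fold and 1.83-fold lower with bleomycin. The lysine degradation map as a whole had 8 lower genes, and its 2 higher genes were the collagen enzymes Plod1 and Colgalt1.

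Glycan genes were 10 higher and 6 lower with bleomycin. Among lysosomal hydrolases Gla, an alpha-galactosidase, was 1.76-fold and Gusb, a glucuronidase, 1.70-fold higher, whereas Hyal1, a hyaluronidase, was 1.93-fold lower. Enzymes of glycan assembly on the higher side were Man2a1 with 1.68-fold, Ext1, which polymerises heparan sulfate, with 1.66-fold, Galnt1 with 1.54-fold, Alg5 with 1.53-fold and Gcnt4 with 2.17-fold. The sialyltransferases St3gal6 and St6galnac3 were 1.84-fold and 1.83-fold lower. St3gal6 had 6.68, 6.77 and 6.49 in homoharringtonine lungs, 6.30, 6.21 and 6.35 in bleomycin lungs and 7.14, 7.19 and 7.17 in vehicle lungs, without overlap between any groups.

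Lipid enzymes showed several large differences. Pla2g7, the phospholipase that inactivates platelet-activating factor, had 5.00, 4.56 and 5.33 in homoharringtonine lungs, 6.00, 6.49 and 6.14 in bleomycin lungs and 4.67, 4.09 and 4.34 in vehicle lungs. It was 3.59-fold higher with bleomycin, and all bleomycin arrays exceeded the others. Gpam, which starts triglyceride synthesis, was 2.09-fold lower, and Pmvk, a kinase of the mevalonate pathway, was 2.77-fold higher. Pmvk had 7.25 in each of the 3 homoharringtonine lungs, 7.90, 7.86 and 8.19 in bleomycin lungs and 6.63, 6.71 and 6.21 in vehicle lungs. Acsl5, which activates fatty acids, was 1.63-fold lower with bleomycin, and Hsd11b1, which activates glucocorticoids, 1.67-fold lower. In sphingosine phosphate metabolism, the lyase Sgpl1 was 1.76-fold higher and the phosphatase Sgpp2 1.54-fold lower.

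Plpp3 dephosphorylates lipid phosphates outside the cell, among them lysophosphatidic acid. It had 7.44, 7.53 and 7.19 in homoharringtonine lungs, 7.68, 7.54 and 7.48 in bleomycin lungs and 8.56, 8.50 and 8.55 in vehicle lungs. Its mean was lower in homoharringtonine than in bleomycin lungs, with a difference of -0.18 and overlapping arrays. Art2b and Gstm2 were the other genes lower with bleomycin whose homoharringtonine mean was lower still, with differences of -0.09 and -0.06.

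Arachidonic acid enzymes were 4 higher and 1 lower with bleomycin. Ptgs1, the constitutive cyclooxygenase, was 2.18-fold higher, and Hpgds, the haematopoietic prostaglandin D synthase, 2.25-fold higher. Cbr2, a carbonyl reductase abundant in mouse lung, had 11.29, 11.10 and 10.59 in homoharringtonine lungs, 10.52, 9.99 and 10.29 in bleomycin lungs and 11.52, 11.71 and 11.46 in vehicle lungs, a 2.46-fold lower mean with bleomycin. Aldh1a7, an aldehyde dehydrogenase of the cofactor class, was 2.72-fold lower. Club cell markers, 4 of 5 named and Aldh1a7 among them, summed to 2060 to 2815 in homoharringtonine lungs, 1288 to 1728 in bleomycin lungs and 3688 to 4506 in vehicle lungs, and their part in these values was not tested.

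The map of glycolysis and gluconeogenesis held 5 of the genes, of which Hk2, Pgk1 and Pkm were higher and Acss1 and Aldh2 lower with bleomycin. Hk2, the inducible hexokinase, had 6.36, 6.26 and 6.40 in homoharringtonine lungs, 6.66, 6.54 and 6.70 in bleomycin lungs and 5.74, 5.89 and 5.67 in vehicle lungs. The glycolytic kinases Pgk1 and Pkm were 1.97-fold and 1.93-fold higher. Pkm had 8.94, 8.71 and 8.94 in homoharringtonine lungs, 9.35, 9.61 and 9.67 in bleomycin lungs and 8.62, 8.66 and 8.50 in vehicle lungs. Hk2, Pgk1 and Pkm had homoharringtonine arrays between the other groups with no overlap. Npl, which cleaves sialic acid, had 5.57, 5.71 and 5.77 in homoharringtonine lungs, 6.49, 6.99 and 6.71 in bleomycin lungs and 5.12, 5.50 and 5.57 in vehicle lungs. Acss1, the mitochondrial acetyl-CoA synthetase, was 2.27-fold lower with bleomycin, and Aldh2, the mitochondrial aldehyde dehydrogenase, 1.86-fold lower.

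Respiratory chain and ATP synthase subunits were all higher with bleomycin, Cox4i1, Cox5a, Cox6b1, Atp5e and Atp5l by 1.63-fold to 1.75-fold. Their differences between homoharringtonine and bleomycin lungs ran from -0.50 for Cox6b1 to 0.05 for Atp5e. Cox5a had 7.91, 7.77 and 8.09 in homoharringtonine lungs, 7.89, 8.11 and 8.31 in bleomycin lungs and 7.15, 7.55 and 7.19 in vehicle lungs. Together with Atp6v0d2, a subunit of the proton pump, the 6 higher genes of this class had a median difference of -0.13 between homoharringtonine and bleomycin lungs and of 0.66 between homoharringtonine and vehicle lungs. The other pump subunit, Atp6v1c2, was 1.94-fold lower with bleomycin.

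Homoharringtonine against bleomycin asked whether these genes differed after the drug. No gene of the 118 passed an adjusted p of 0.05 in limma, where 0.0943% of all probe sets did, 0.0387% higher and 0.0556% lower, and 74 had an unadjusted p under 0.05, where 11.1% of all probe sets had one. The bleomycin arrays of this comparison are those by which the genes were chosen, so these counts are a description. The smallest adjusted p was 0.0534 for Uck2, with a difference of -1.04 ± 0.14 (SE, n = 3 per group). Gda followed with -1.28 ± 0.18 and an adjusted p of 0.0597, then Adssl1 with -1.17 ± 0.17 and 0.0597 and Npl with -1.05 ± 0.16 and 0.0682. These 4 genes were lower in 3 of 3 homoharringtonine lungs than in any bleomycin lung. Leaving out bleomycin replicate 1 brought the number called to 10, where 0.438% of all probe sets were called. Leaving out homoharringtonine replicate 3 called Gda alone, where 20 of all probe sets were called. When dim probe sets were left out of the adjustment, limma called 13 genes, 3 higher and 10 lower, beside 0.455% and 0.701% of all probe sets kept. Those were Uck2, Gda, Adssl1, Npl, Ckb, Pkm, Man2a1, B4galt1, Pla2g7 and Plod1 on the lower side and P4ha1, Hdc and Pde5a on the higher side. The authors' deposited table listed 2 of the 118 for this comparison, Gda at -2.43-fold with an adjusted p of 0.000461 and Hmox1 at -2.22-fold with an adjusted p of 0.0231.

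**Figure D3:**
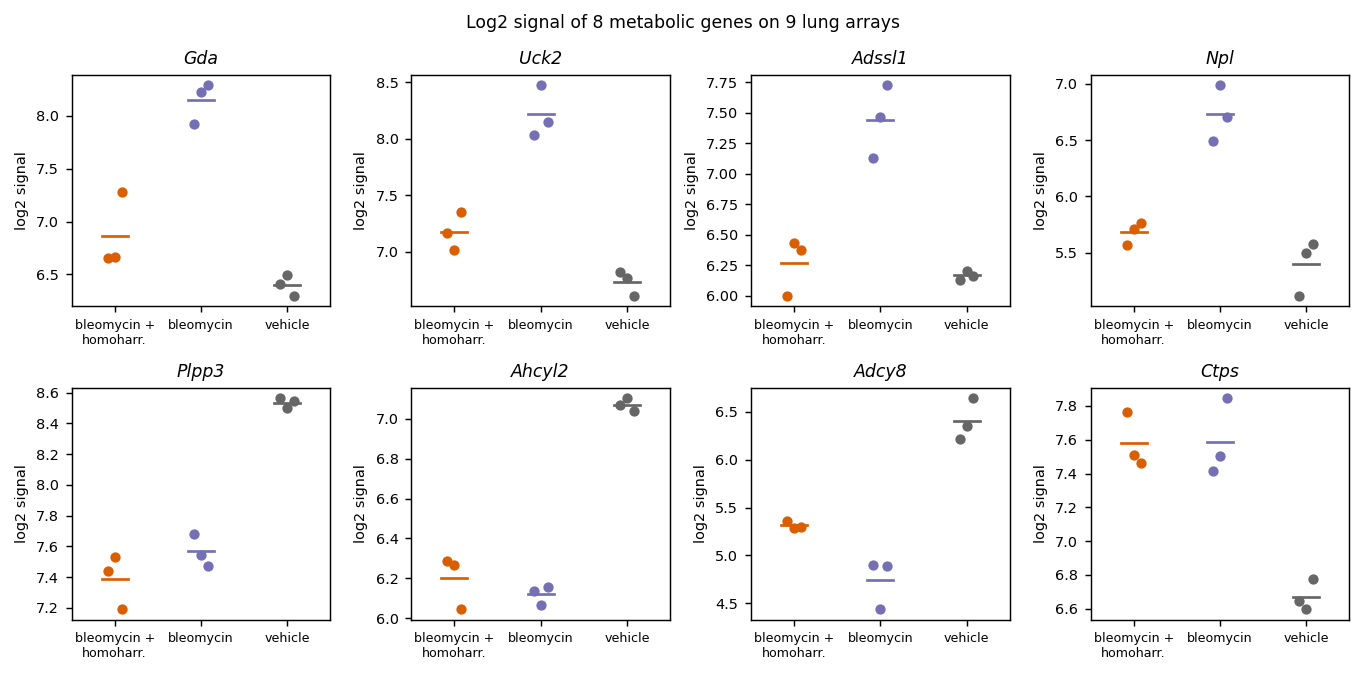
Log2 signal (vertical axis) of 8 genes on the arrays of each group (horizontal axis), with 1 point per mouse and bars for group means. For Gda, Uck2, Adssl1 and Npl the bleomycin arrays lie above all others, and for Plpp3, Ahcyl2, Adcy8 and Ctps both groups given bleomycin lie apart from vehicle.

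In the same comparison 29 genes had homoharringtonine arrays above all bleomycin arrays and 33 had them below, against 6.19% and 7.79% of all probe sets. The 29 were all genes lower with bleomycin and the 33 all genes higher with bleomycin. The 55 genes higher with bleomycin had a median difference of -0.44 between homoharringtonine and bleomycin lungs, and the 63 lower genes one of 0.39, where the median of all probe sets was -0.0042. Both comparisons rest on the same bleomycin arrays, by which the genes were chosen, so nothing is drawn from this opposition. The largest higher values after those of Hdc, with 0.97, and Colgalt2, with 0.86, were Plcb1 with 0.74 and Cbr2 with 0.73.

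Homoharringtonine against vehicle asked which differences were present in lungs given both agents. In limma 7 genes passed an adjusted p of 0.05, against 0.506% of all probe sets. Of the 7, 1 was higher and 6 were lower, beside 0.193% and 0.312% of all probe sets. The vehicle arrays are shared with the choice of the genes, so this share is a description. Plpp3 was 2.21-fold lower with a difference of -1.15 ± 0.11 (SE, n = 3 per group) and an adjusted p of 0.00996, and lower in 3 of 3 lungs. Ahcyl2 fell by 0.87 with an adjusted p of 0.0135, P4ha1 by 0.65 with 0.0308, Adcy8 by 1.09 with 0.0321, Gstm2 by 0.68 with 0.0473 and Mat2a by 0.84 with 0.0484. Ctps alone rose, by 0.91 ± 0.14 with an adjusted p of 0.0406. No gene was called without vehicle replicate 2 or vehicle replicate 3, where 13 and 7 of all probe sets were called. Without homoharringtonine replicate 3 limma called 1, beside 14 of all probe sets. Without homoharringtonine replicate 1 or 2 it called 2, beside 122 and 113 of all probe sets. It called 3 without vehicle replicate 1, beside 69 of all probe sets, and 12 without bleomycin replicate 1, beside 257. The authors' deposited table listed 5 of the 118 here, Adcy8, Art2b, Inmt and Plpp3 as lower and Hmox1 as higher.

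Without regard to the test, homoharringtonine arrays lay above all vehicle arrays for 43 genes and below them for 52, against 9.46% and 11.7% of all probe sets. They overlapped vehicle for 23. The overlapping genes included Adssl1 with a difference of 0.10, Ckb with 0.09, Gsta1 with 0.06 and B4galt1 with 0.04. The largest values above vehicle were Hmox1 with 1.20, P4ha3 with 1.02 and Acp5 with 0.995, and those below were Art2b with -1.34, Plpp3 with -1.15, Adcy8 with -1.09 and Inmt with -1.08. Of these, Plpp3 and Adcy8 passed the test.

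The lungs of a group were not alike. Of the 63 genes lower with bleomycin, 46 were highest in bleomycin replicate 1 among the bleomycin lungs, and of the 55 higher genes 30 were lowest there. Of the same 55 higher genes, 15 had their lowest bleomycin value in replicate 3 and 34 had their highest homoharringtonine value in replicate 3. Both held for 8 of these higher genes, among them Acp5, Akr1b8, Atp6v0d2, Cbr3, Gusb, Hpgds and Sgpl1. For Akr1b8 bleomycin replicate 3 differed from the next lowest bleomycin lung by only -0.02. Whether 8 is more than the counts of 15 and 34 would give was not tested. These 8 genes were picked after their values were seen. Gusb had 7.33, 7.07 and 7.56 in homoharringtonine lungs, 7.62, 7.86 and 7.41 in bleomycin lungs and 6.72, 7.03 and 6.84 in vehicle lungs. Atp6v0d2 had 8.20, 7.88 and 8.54 in homoharringtonine lungs, 8.56, 8.57 and 7.74 in bleomycin lungs and 7.54, 7.37 and 7.19 in vehicle lungs. Acp5, the acid phosphatase of osteoclasts and macrophages, had 6.71, 6.26 and 7.13 in homoharringtonine lungs, 7.36, 7.33 and 6.54 in bleomycin lungs and 5.69, 5.95 and 5.48 in vehicle lungs. In each of these genes bleomycin replicate 3 lay below homoharringtonine replicate 3.

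**Figure D4:**
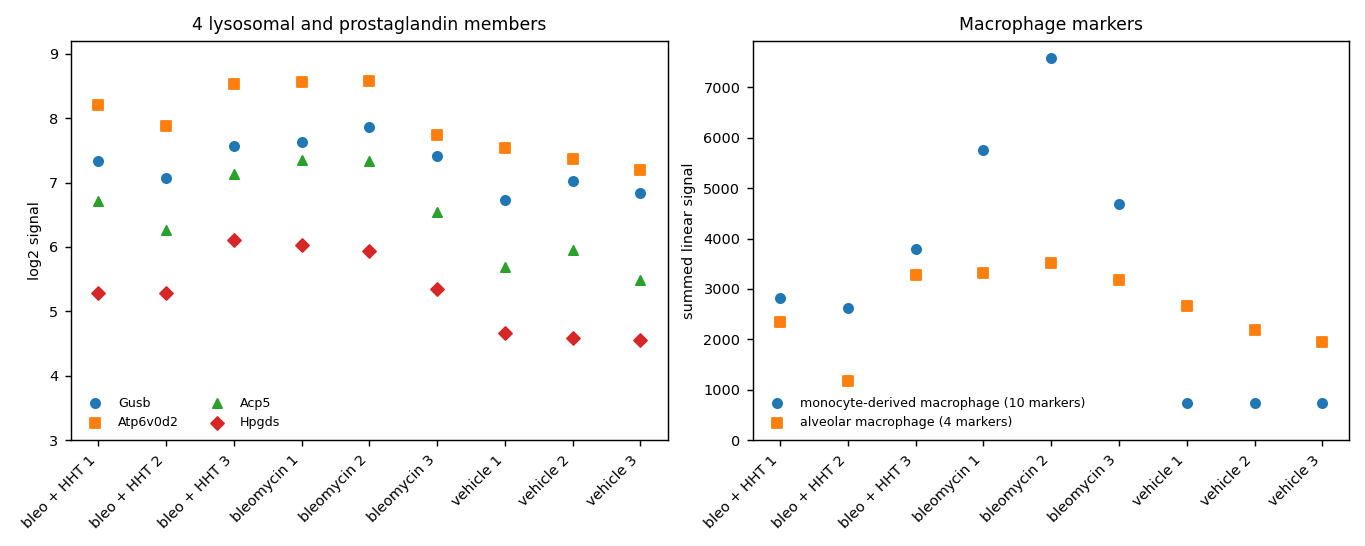
Log2 signal of 4 genes (left, vertical axis) and summed linear signal of macrophage markers (right, vertical axis) on each of the 9 arrays (horizontal axes), 1 symbol per gene or marker list. Among bleomycin lungs the 4 genes and the monocyte-derived macrophage markers are lowest in replicate 3, and among homoharringtonine lungs they are highest in replicate 3. The 4 genes are from those picked by this order.

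Monocyte-derived macrophage markers, all 10 of them named, summed to 2816, 2628 and 3794 in homoharringtonine lungs, 5761, 7580 and 4689 in bleomycin lungs and 735 to 742 in vehicle lungs. Alveolar macrophage markers, 4 of 8 named, summed to 2345, 1167 and 3280 in homoharringtonine lungs, 3312, 3518 and 3177 in bleomycin lungs and 1947 to 2664 in vehicle lungs. Most of this sum was Chil3, and the 4 did not move together, since Ear1 was called lower with bleomycin, with a difference of -2.23, and Marco higher, with 1.75. The lowest bleomycin and the highest homoharringtonine sums lay in replicate 3 for both macrophage lists and for the fibroblast list. The 8 genes were picked by this same order, so nothing is drawn from the likeness. Neutrophil markers, 4 of 5 named, had another order in bleomycin lungs, with sums of 167, 487 and 553. The part of these lists in the genes' values was not tested.

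Beyond the map, the lists of pathway genes could be read only where the authors had named a probe set, so that their counts describe the listing. Of 20 genes of the glycolysis list 5 were named, and limma called all 5 higher with bleomycin. They were the glycolytic enzymes Hk2, Pgk1 and Pkm, the glucose transporter Slc2a1 and Pdk4, a kinase that inhibits pyruvate dehydrogenase. In that comparison 3.37% of all probe sets were called higher and 4.42% lower. Pdk4 fell by 1.17 in homoharringtonine against bleomycin lungs with an adjusted p of 0.0175, at 5.65, 5.81 and 5.62 in homoharringtonine lungs, 7.03, 6.80 and 6.76 in bleomycin lungs and 5.36, 5.32 and 5.46 in vehicle lungs. Of 19 eicosanoid enzymes 5 were named, of which Pla2g7, Ptgs1, Hpgds and Alox5ap were called higher and Hpgd, which inactivates prostaglandins, lower with bleomycin. Of 24 lysosomal hydrolases 4 were named and 3 called higher. Of 20 purine and pyrimidine synthesis genes 3 were named, Ctps being called higher and Impdh1 lower. Serine, folate and proline synthesis had 2 of 17 named, Mthfd1l and Glul, both called higher. The list of glycosaminoglycan synthesis had Ext1 alone of 27, called higher, and that of the proton pump had Atp6v0d2 alone of 14, not called. No gene chosen for the lists of the citrate cycle, mitochondrial fatty acid oxidation or fatty acid and cholesterol synthesis was named, with 20, 15 and 21 genes. These lists do not hold every gene of a pathway. Pmvk of the mevalonate pathway and Lbr of the steroid biosynthesis map were named but were not on them.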

How the data were processed

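Total RNA from 9 mouse lungs was extracted with Trizol and hybridised as biotin-labelled cDNA, per the labels' protocols. The submitters' processing notes name Affymetrix Power Tools and R 3.5.1, with the normalization not given in the sources used. Signals in the deposited table are on a log2 scale, judged from their range, and their like medians show a common scale. The authors' comparison tables hold, per the file headers, a signed fold (read as a score) and p-values of the LPE test, a local pooled error test. Names come from these tables only, so an unlisted gene is unnamed here. Coordinates of the probe sets were not used, since no build is stated for them.

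Limma 3.58.1 in R 4.3.3 estimated the mean of each group for 41345 probe sets from the 9 arrays together, with 6 residual and 2.66 prior degrees of freedom. Tests were 2-sided with Benjamini-Hochberg adjustment over all probe sets at 0.05. Dim probe sets and control probe sets were kept, and the script was tested on simulated data. The labels number the lungs within each group and name no batch. An exact permutation test of 3 against 3 arrays cannot go below 0.1 and was not made.

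The genes, lists, markers and pairs were chosen with earlier results of these data known. The genes singled out are the 5 per class with the largest bleomycin difference, those called or largest in the homoharringtonine comparisons and those nearest the listing threshold. Others are named where their map or role is described, and 1 gene is counted but not reported by name. Alternatives covered the fit, scaling, filters, probe set choice and left-out replicates.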

Additional observations from a re-analysis of the deposited data

How the results depend on the processing

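The bleomycin differences of the genes singled out kept their direction under all alternatives run. For all 118 genes, 93 to 114 were called against vehicle in alternatives other than left-out replicates, beside 2175 to 4131 of all probe sets. When 1 replicate was left out 64 to 104 genes were called, beside 1136 to 3396 of all probe sets. The median differences of the genes were then -0.68 to -0.57. For homoharringtonine against bleomycin, 0 genes were called with 6 arrays, array weights, quantile normalization, median centring, any probe set of a gene and no cross-hybridising probe set, 1 with a trended robust prior and 13 without dim probe sets. Of all probe sets, 0 were called with 6 arrays, 16 with array weights, 33 with quantile normalization and 30 with median centring. The trended robust prior called 43 of all probe sets, and 239 were called without dim ones. Leaving out 1 replicate gave 0 to 10 genes, beside 0 to 181 of all probe sets, with medians of 0.05 to 0.08. For homoharringtonine against vehicle, 6 were called with 6 arrays, 10 with a trended robust prior, 15 with array weights, 7 with quantile normalization, with any probe set of a gene or with no cross-hybridising probe set, 5 with median centring and 23 without dim probe sets, where fewer probe sets enter the adjustment and 668 of all those kept were called. Of all probe sets, 144 were called with 6 arrays, 253 with the trended robust prior and 385 with array weights. Quantile normalization called 216 of all probe sets and median centring 196. Leaving out 1 replicate gave 0 to 12 genes, beside 7 to 257 of all probe sets, with medians of -0.25 to -0.10. The cause of the other shifts was not tested. No result reversed. Over the genes singled out and all alternatives, values of single genes gained a call in 20 cases for homoharringtonine against bleomycin, with 14 sign changes of values not called. Against vehicle they gained a call in 29 cases and lost it in 53, with 7 such sign changes. Replicate numbers are shared by the groups. Deviations of same-numbered arrays from their group means had correlations of -0.137 to 0.0934, and those of differently numbered arrays -0.0645 to 0.111. These values gave no ground to pair the mice by number, but with 3 arrays per group they cannot exclude a pairing. With the replicate number as a block, 93, 0 and 1 genes were called for bleomycin against vehicle, homoharringtonine against bleomycin and homoharringtonine against vehicle, the last being Plpp3. In the same order, 2175, 0 and 22 of all probe sets were called. Signals near background limit what can be read from Aass, Art2b and Pnp2.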
